A study of Bos taurus with 8 samples.

Results

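The nuclear-encoded subunits of the mitochondrial respiratory chain, complexes I to V, were examined in bovine whole blood exposed to a phenolic extract of cowpea leaf (CPE) and in untreated blood (CONTROL). Members were all genes whose symbol on the array starts with NDUFA, NDUFB, NDUFC, NDUFS or NDUFV (assembly factors excepted), is SDHA, SDHB, SDHC or SDHD, or starts with UQCR, with COX4 to COX8 or with ATP5. The rule used names only and no measured value, and it gave 83 of 16966 named genes and 200 of 43653 probes. Of the 83 genes, 45 could be tested.

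The series holds 8 single-colour (Cy3) Agilent bovine arrays, 4 labelled CPE and 4 labelled CONTROL. Fresh peripheral blood from 5 cows (female, Holstein Friesian) was kept at 37 °C for 30 min in 5% CO2; CPE received 10 µg/ml of extract and CONTROL none. All cows, those behind the controls included, had received a commercial probiotic pack for 60 days, had no mastitis and gave RNA with an integrity number above 7, per the labels. RNA was pooled within each group before hybridisation, so all 4 arrays in a group could be technical repeats of 1 pool, and p-values then measure only the spread between arrays. The CPE arrays lie on 1 slide and the CONTROL arrays on another, scanned months apart, so slide and treatment cannot be told apart and slide could not be entered as a term in any fit.

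The respiratory chain sits in the inner mitochondrial membrane. Complexes I and II pass electrons from NADH and succinate to ubiquinone, complex III passes them on to cytochrome c, complex IV hands them to oxygen, and complex V (ATP synthase) uses the resulting proton gradient to make ATP. Most subunits are encoded in the nucleus and a core few in mitochondrial DNA; among blood cells, lymphocytes and monocytes depend on oxidative phosphorylation more than neutrophils, and mature red cells have no mitochondria.

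Each member was read by 60-base probes, and several genes carry more than 1, which let the same transcript be measured at separate places on the array. Those shown here are an overlapping pair, the only tested complex II probe and a stretch of the probe behind the only member called lower.
For ATP5C1, the gamma subunit of the ATP synthase rotor, a pair of probes beside its brightest one meets in the 19 bases in capitals.
ATP5C1 probe A_73_P388426: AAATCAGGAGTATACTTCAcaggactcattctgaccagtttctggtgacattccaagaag
ATP5C1 probe A_73_P493833: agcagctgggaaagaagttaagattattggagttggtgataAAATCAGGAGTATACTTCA
The only tested probe of complex II belongs to SDHB.
SDHB probe A_73_P045996: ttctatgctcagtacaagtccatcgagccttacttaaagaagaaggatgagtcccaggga
The only member called lower in CPE is NDUFC1, and bases 5 to 34 of its probe are these.
NDUFC1 probe A_73_P513428, stretch: acaaagagtcagacacgacctagcaactga

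Large areas of every array were dim. A spot was therefore used only where its surroundings were bright on all 8 arrays, as judged by the 90th percentile of raw signal over the 61 nearest spots; 13028 spots, 29.7% of those on the array, met this. Correlations over tested genes ran from 0.970 to 0.998 between CPE arrays, from 0.985 to 0.997 between CONTROL arrays and from 0.921 to 0.973 between groups. Levels are given as log2 processed signal relative to the 75th percentile of the bright area of each array, and the levels of different probes are not comparable. A change is the log2 difference CPE minus CONTROL with its standard error (SE) from limma, n = 4 arrays per group, and a gene was called at a Benjamini-Hochberg adjusted p under 0.05 over 4824 genes.

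CPE array 3 stands apart from the other 7. Only on this array did the scanner software multiply each spot by a position-dependent factor (multiplicative detrending), which ranged from 0.187 to 12.7 over the array and was 1 on every other array. At the spots of the 44 tested members named here the factor had a median of 0.554, and it was between 0.228 and 0.372 at 5 of them, those of NDUFA8, UQCRB, COX7A2L, ATP5J and ATP5A1, all in array rows 11 to 47 of 532. On these 5 spots CPE array 3 read 0.61 to 1.27 log2 below the mean of the other 3 CPE arrays. With the factor removed (background-subtracted signal in place of processed signal on all arrays), the same 5 spots differed from the other CPE arrays by -0.07 to 0.04. Correlation of CPE array 3 with the other CPE arrays was 0.970 to 0.979 as deposited and 0.991 to 0.998 with the factor removed. Each result below is therefore given both ways, as deposited and with the detrending undone; the second was chosen after seeing the data.

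**Figure D1:**
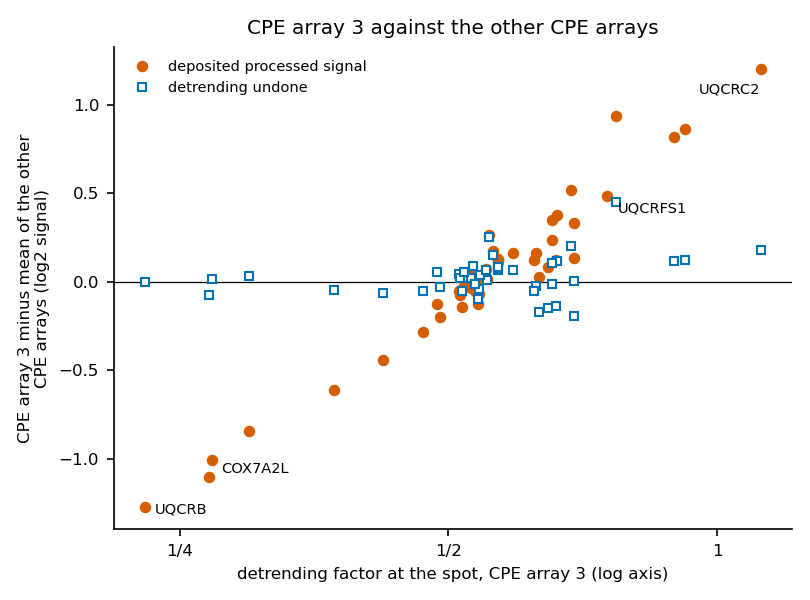
Each point is 1 of 44 tested members, with the detrending factor at its spot on CPE array 3 (log axis) against the log2 difference of that array from the mean of the other 3 CPE arrays; filled circles show the deposited processed signal and open squares the signal with detrending undone. The circles climb with the factor, from UQCRB at the low end to UQCRC2 at the high end, while the squares stay within -0.19 and 0.45; UQCRFS1 has no square because its brightest probe changes.

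Respiratory chain genes were called higher in CPE far more often than lower. As deposited, 22 of 45 members (48.9%) were called higher, where 24.2% of all genes tested were, and 1 (2.22%) was called lower, where 22.7% of all genes were. With detrending undone, 31 members (68.9%) were called higher against 31.1% of all genes, and 1 lower against 29.3%. All 22 members called higher as deposited were among the 31. The median change was 0.29 over members and 0.03 over all genes as deposited, and 0.33 and 0.03 with detrending undone. Groups did not overlap, with CPE above, in 21 members against 24.4% of all genes (29 against 29.4% with detrending undone); with CPE below, in 1 member against 24.8%. These are bulk samples, in which more cells of a type and more RNA per cell cannot be told apart. The direction here is opposite to that in the authors' deposited table, which is scaled over the whole array: there CPE minus CONTROL was below 0 for 42 of the 45 tested probes, with a median of -0.84, beside -1.05 over all probes.

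By complex, the members called higher as deposited were 5 of 18 in complex I, 1 of 1 in II, 5 of 7 in III, 5 of 10 in IV and 6 of 9 in V. With detrending undone they were 10 of 18, 1 of 1, 6 of 7, 6 of 10 and 8 of 9. The median change was 0.20 in complex I, 0.43 in III, 0.27 in IV and 0.38 in V as deposited, and 0.26, 0.37, 0.29 and 0.36 with detrending undone. Complex I as deposited, at 27.8%, was near the 24.2% of all genes, and with detrending undone it stood at 55.6% against 31.1%. Differences between the complexes were not tested.

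**Figure D2:**
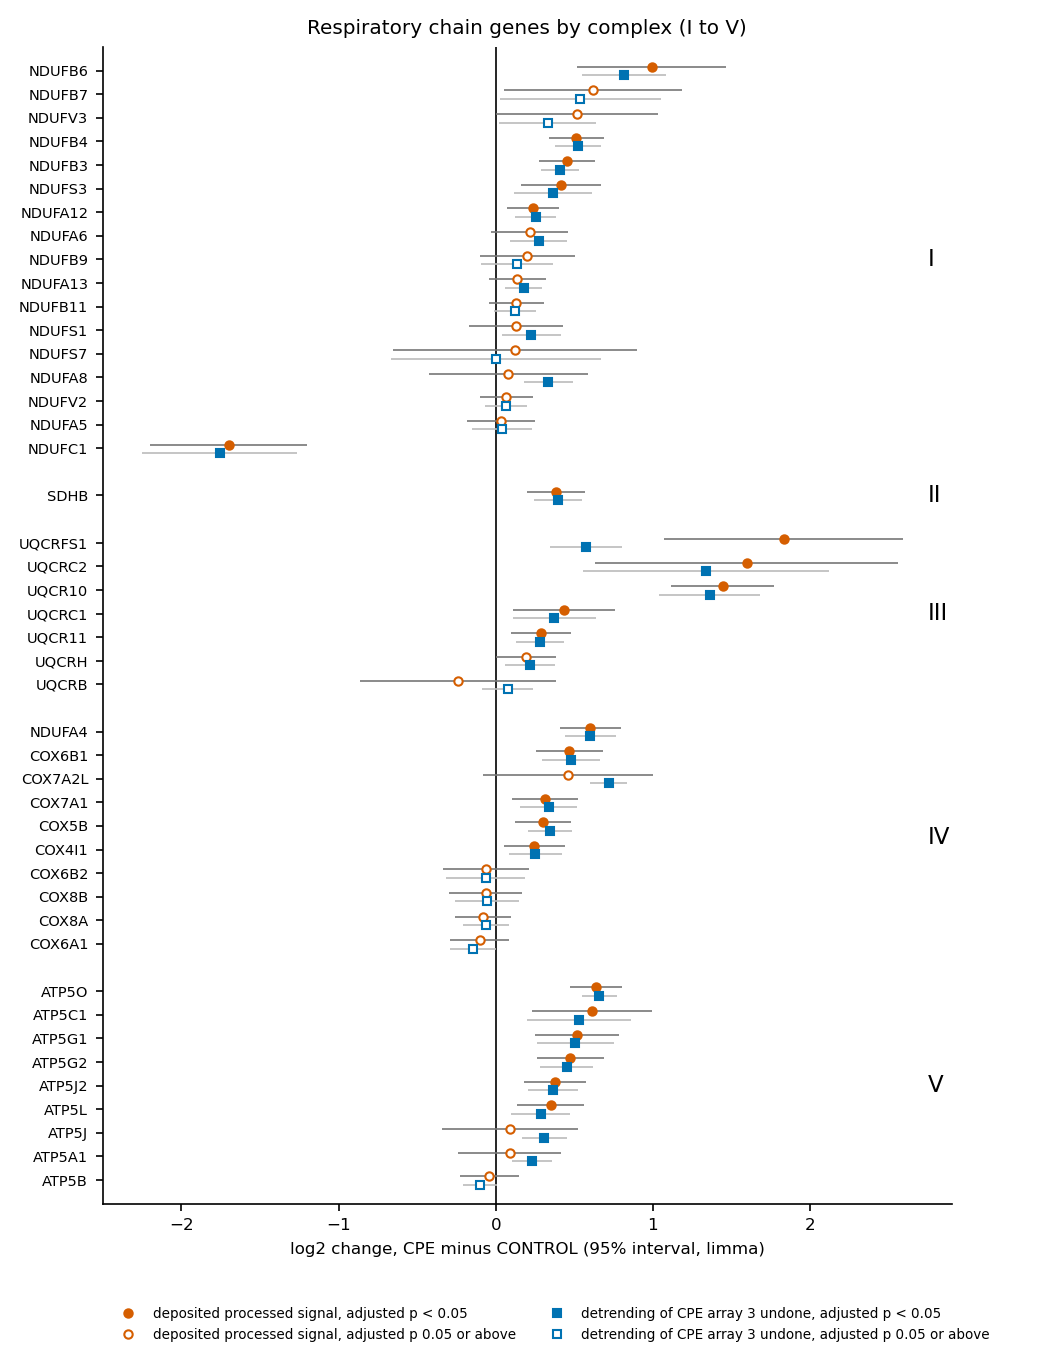
Log2 change (CPE minus CONTROL) with its 95% interval from limma for 44 tested members, grouped by complex; circles are the deposited processed signal, squares the signal with detrending of CPE array 3 undone, and filled symbols have an adjusted p under 0.05. Most symbols lie right of 0, NDUFC1 lies far to the left at -1.70, and UQCRFS1, UQCRC2 and UQCR10 lie farthest to the right.

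Complex I, NADH dehydrogenase, was represented by 18 of 37 genes. The members called higher were NDUFB6, NDUFB4, NDUFB3, NDUFS3 and NDUFA12. All but NDUFS3 are accessory subunits, and the 3 NDUFB proteins belong to the membrane arm, where protons are pumped.
NDUFB6 read 2.64, 2.50, 3.41 and 2.62 on CPE arrays 1 to 4 and 1.97, 1.88, 1.92 and 1.43 on CONTROL arrays 1 to 4. Every CPE array lay above every CONTROL array, with CPE array 3 high and CONTROL array 4 low within their groups. The change was 0.99 (SE 0.21, limma adjusted p = 0.00475), a 1.99-fold difference, and with detrending undone CPE array 3 read 2.71 and the change was 0.82 (SE 0.12).
For NDUFB4 the CPE arrays read 2.87, 2.70, 2.85 and 2.87 and the CONTROL arrays 2.26, 2.30, 2.27 and 2.40. The arrays within each group were close together and the groups well apart. Its change was 0.51 (SE 0.08, limma adjusted p = 0.000868), 1.43-fold.
NDUFB3 stood at 2.18, 2.15, 2.32 and 2.13 in CPE and at 1.70, 1.72, 1.72 and 1.84 in CONTROL. Again no CONTROL array reached a CPE array. The change of NDUFB3 was 0.45 (SE 0.08, limma adjusted p = 0.00173), 1.37-fold.

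NDUFS3 is an iron-sulfur protein group subunit of the matrix arm that contacts the ubiquinone-reducing end. Its values were 2.95, 3.27, 3.1 and 3.00 on the CPE arrays and 2.71, 2.77, 2.77 and 2.41 on the CONTROL arrays, a change of 0.41 (SE 0.11, limma adjusted p = 0.0155). CONTROL array 4 was the lowest, and the groups did not overlap. NDUFA12, an accessory subunit of the matrix arm, had the smallest change called in complex I. It read 2.65, 2.61, 2.61 and 2.65 in CPE against 2.32, 2.40, 2.35 and 2.50 in CONTROL, a change of 0.24 (SE 0.07, limma adjusted p = 0.0260). The CPE arrays were nearly equal, and leaving out any of 5 arrays (CPE 1 or 4, CONTROL 1, 2 or 3) took its adjusted p to between 0.066 and 0.079. A second probe of NDUFA12 changed by 0.54 (SE 0.10).

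NDUFC1, a small accessory subunit, was the exception. It read -2.40, -2.12, -2.35 and -2.77 on the CPE arrays and -0.33, -0.47, -0.74 and -1.31 on the CONTROL arrays. All CPE arrays lay below all CONTROL arrays, and CONTROL array 4 was nearest to them. Its change was -1.70 (SE 0.22, limma adjusted p = 0.000407), and -1.76 with detrending undone. Over 23 planned ways of processing, the whole array not among them, the change ran from -2.07 to -0.99. Raw signal of NDUFC1 was low, at 164.5 to 226.5 on the CPE arrays and 325 to 677 on the CONTROL arrays. The array design derives its probe from an expressed sequence tag, not from the gene's reference mRNA, and this was its only probe in the bright area. The 30 bases printed above resemble the tail of a repeat family spread through cattle genomes (a tRNA-derived SINE), as background knowledge; no repeat annotation was used here, and no other probe on the array shared a run of 15 of these bases. Which transcripts this probe reads was not tested.

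NDUFA8, NDUFA6, NDUFA13 and NDUFS1 passed the threshold only with detrending undone. In NDUFA8, an accessory subunit with disulfide-bonded cysteines, CPE array 3 read 0.97 beside 1.95, 2.03 and 1.96 on the others, and 1.99 undone, against 1.57 to 1.83 in CONTROL. Its change went from 0.08 (SE 0.22) to 0.33 (SE 0.07, limma adjusted p = 0.00288). The other 3 changed by less when the factor was removed. NDUFA6 went from 0.22 to 0.27, NDUFA13 (also known as GRIM-19) from 0.14 to 0.18, and NDUFS1, the largest iron-sulfur subunit, from 0.13 to 0.23. The other tested NDUFS1 probes changed by 0.18 and 0.11 undone, and neither was called.

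Another 7 tested members of complex I were not called either way. NDUFB7 (0.62, SE 0.25) and NDUFV3 (0.52, SE 0.23) had large differences with wide error, and both had their lowest CONTROL value on array 4. NDUFB9 (0.20), NDUFB11 (0.13), NDUFS7 (0.12), NDUFV2 (0.07) and NDUFA5 (0.03) were nearer to 0. NDUFV2, which binds an iron-sulfur cluster next to the NADH site, had a second probe that changed by 0.56 (SE 0.14), over 3 CONTROL arrays because the scanner software marked 1 spot as an outlier. NDUFA1, NDUFA2, NDUFA3, NDUFA7, NDUFA9, NDUFA10, NDUFA11, NDUFAB1, NDUFB1, NDUFB2, NDUFB5, NDUFB8, NDUFB10, NDUFC2, NDUFS4, NDUFS5, NDUFS6, NDUFS8 and NDUFV1 had no probe in the bright area and were not analysed.

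Complex II, succinate dehydrogenase, links the tricarboxylic acid cycle to the chain. Only SDHB, its iron-sulfur subunit, could be read, by the probe printed above; SDHA, SDHC and SDHD lay in dim areas. SDHB stood at 2.31, 2.17, 2.24 and 2.33 in CPE and at 1.87, 1.78, 1.85 and 2.01 in CONTROL. The groups did not overlap, and the change was 0.38 (SE 0.08, limma adjusted p = 0.00483), or 0.40 with detrending undone.

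Complex III, the cytochrome bc1 complex, held the 3 largest rises as deposited, those of UQCRFS1, UQCRC2 and UQCR10. Of these, UQCR10, a small subunit beside the iron-sulfur protein, had the smallest error, and it alone was also called when bright areas were judged over a wider neighbourhood (1.45).
UQCR10 read 3.44, 3.71, 3.61 and 3.26 on the CPE arrays and 2.28, 1.72, 2.18 and 2.08 on the CONTROL arrays. Every CPE value was about 1 log2 unit or more above the highest CONTROL value. The change was 1.44 (SE 0.14, limma adjusted p = 0.000107), 2.72-fold, and 1.36 with detrending undone; without any 1 array it stayed between 1.33 and 1.52.
UQCRC2, a core protein of the complex, read 1.91, 1.55, 2.89 and 1.61 in CPE and 0.91, 0.73, 0.75 and -0.80 in CONTROL. The groups were apart, but CPE array 3 was high and CONTROL array 4 low. The change of 1.60 (SE 0.42, limma adjusted p = 0.0142) became 1.34 with detrending undone and 0.89 without those 2 arrays, a fall of more than 1.5 times. When bright areas were judged over a wider neighbourhood this spot no longer qualified, and another UQCRC2 probe gave 0.25 (SE 0.18, limma adjusted p = 0.26), not called. The surroundings of its spot on CONTROL array 4 were dim, with a local value of -1.41 against -0.18 to -0.10 on the other CONTROL arrays (log2 relative to the 90th percentile of local values on each array).

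UQCRFS1 is the Rieske iron-sulfur protein, which carries electrons within complex III. Its brightest probe read 2.67, 3.09, 3.30 and 2.69 in CPE and 1.59, 1.38, 1.44 and 0.011 in CONTROL, a change of 1.83 (SE 0.34, limma adjusted p = 0.00241). CONTROL array 4 lay far below the others of its group. Around this spot the arrays were brighter in CPE than in CONTROL by 1.17 log2 on average, and the local value on CONTROL array 4 was -1.11; the part of this in the change was not tested. Without CONTROL array 4 the change was 1.47. When bright areas were judged over a wider neighbourhood, another, brighter probe entered and stood for the gene, and the change was 0.44 (SE 0.26, limma adjusted p = 0.19), not called. The second UQCRFS1 probe, which is the brighter one once detrending is undone, read 2.24, 2.62, 2.13 and 2.22 against 1.75, 1.78, 1.78 and 1.64, a change of 0.57 (SE 0.11, limma adjusted p = 0.00344 over 7197 probes) as deposited and 0.57 (SE 0.10) undone. Both probes put CPE above CONTROL on every array, and they differ by more than 1 log2 unit in how far.

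UQCR11, a small membrane subunit whose probe the array design also derives from an expressed sequence tag, read 2.80, 2.80, 2.97 and 2.79 in CPE and 2.45, 2.57, 2.67 and 2.50 in CONTROL, a change of 0.29 (SE 0.08, limma adjusted p = 0.0200). The groups did not overlap; the call was lost without CONTROL array 1 (adjusted p = 0.061) or CONTROL array 2 (0.051). UQCRC1, the other core protein, read 2.22, 1.77, 2.41 and 2.18 against 1.71, 1.78, 1.85 and 1.5, a change of 0.43 (SE 0.14, limma adjusted p = 0.0332). CPE array 2 fell within the CONTROL range, and a second UQCRC1 probe changed by 0.05. The call on UQCRC1 was lost without any of CPE arrays 1, 3 or 4 or CONTROL arrays 1, 2 or 4 (adjusted p 0.055 to 0.081).
UQCRH, the hinge protein that binds cytochrome c1, was called only with detrending undone, at 0.22 (SE 0.07, limma adjusted p = 0.0249). UQCRB, a ubiquinone-binding subunit, was called neither way by its brightest probe. It read 1.33 on CPE array 3 and 2.56 to 2.62 on the other CPE arrays as deposited, and its change went from -0.24 (SE 0.28) to 0.08 (SE 0.07) undone. A second UQCRB probe, drawn from an expressed sequence tag, was itself called lower in CPE. It changed by -1.05 (SE 0.08, limma adjusted p = 2.87e-05 over 7197 probes) as deposited and by -0.99 undone. Raw signal of this probe was low, at 142 to 164 on the CPE arrays and 220 to 257 on the CONTROL arrays. UQCRQ had no probe in the bright area.

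Complex IV, cytochrome c oxidase, was represented by 10 of 17 genes, counting NDUFA4, which was first named as a complex I protein and is now placed in complex IV. NDUFA4 had 4 tested probes, and its brightest read 4.16, 4.08, 4.19 and 4.12 in CPE against 3.43, 3.48, 3.51 and 3.71 in CONTROL. The CPE arrays were tightly grouped above all CONTROL arrays. The change was 0.60 (SE 0.08, limma adjusted p = 0.000611), 1.52-fold, and the other 3 probes gave 0.43, 0.61 and 0.79.
COX6B1, a subunit on the intermembrane side, read 4.92, 5.03, 4.92 and 4.96 against 4.31, 4.44, 4.52 and 4.69, a change of 0.47 (SE 0.09, limma adjusted p = 0.00373). CONTROL array 4 was the CONTROL array nearest to CPE, and the groups stayed apart. Its second probe changed by 1.15 (SE 0.25), with CONTROL array 4 low at 2.31.
COX5B, which binds zinc, read 4.05, 3.94, 3.89 and 4.06 against 3.61, 3.67, 3.66 and 3.79, a change of 0.30 (SE 0.08, limma adjusted p = 0.0139). Again no array of CONTROL reached CPE.

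COX7A1, the isoform typical of heart and skeletal muscle, read 0.60, 0.71, 0.56 and 0.59 in CPE and 0.20, 0.25, 0.23 and 0.52 in CONTROL, a change of 0.31 (SE 0.09, limma adjusted p = 0.0223). CONTROL array 4 lay just under the lowest CPE array. The call was lost without CONTROL array 1, 2 or 3 (adjusted p 0.065 or 0.066). COX4I1, the ubiquitous isoform of the largest nuclear-encoded subunit, read 5.93, 5.88, 5.94 and 5.97 against 5.61, 5.63, 5.61 and 5.89, a change of 0.25 (SE 0.09, limma adjusted p = 0.0433). Here the groups overlapped, since CONTROL array 4 stood above CPE array 2. Leaving out any of CPE arrays 1, 2 and 4 or CONTROL arrays 1, 2 and 3 took COX4I1 to an adjusted p between 0.050 and 0.12.
COX7A2L, a factor that joins complexes III and IV into supercomplexes, was called only with detrending undone. It read 3.27, 3.34 and 3.25 on CPE arrays 1, 2 and 4 and 2.18 on CPE array 3, against 2.58, 2.53, 2.59 and 2.50 in CONTROL. CPE array 3 fell below every CONTROL array as deposited and read above all of them, at 3.21, once the factor of 0.27 was removed. The change was 0.46 (SE 0.24, limma adjusted p = 0.14) as deposited and 0.72 (SE 0.05, limma adjusted p = 8.69e-06) undone.

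The other 4 tested members of complex IV had changes below 0, none of them called: COX6A1 at -0.10 (SE 0.08), COX8A at -0.08 (SE 0.08), COX8B at -0.06 (SE 0.10) and COX6B2 at -0.06 (SE 0.12). COX6B2 is the testis isoform and COX8B a heart isoform, while COX6A1 and COX8A are the forms found in most tissues. COX6A2 and COX4I2 were bright enough to be called above background on only some arrays, COX6A2 on 4 CPE arrays and 1 CONTROL array and COX4I2 on 1 of each group. COX5A, COX7A2, COX7B, COX7B2 and NDUFA4L2 had no probe in the bright area.

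Complex V, the ATP synthase, was represented by 9 of 17 genes, under the older symbols of the array. Its 6 members called higher come from the catalytic head and stalk (ATP5C1, ATP5O), the ring in the membrane (ATP5G1, ATP5G2) and the membrane base (ATP5J2, ATP5L).
ATP5O, the stalk subunit now named ATP5PO, read 2.61, 2.68, 2.48 and 2.57 in CPE and 1.94, 1.95, 1.93 and 1.97 in CONTROL. The CONTROL arrays were almost equal and all far below CPE. The change was 0.64 (SE 0.07, limma adjusted p = 0.000222), 1.55-fold.
ATP5C1, the rotor's gamma subunit (ATP5F1C), read 3.79, 3.80, 4.01 and 3.44 against 3.24, 3.35, 3.29 and 2.72, a change of 0.61 (SE 0.17, limma adjusted p = 0.0160) by its brightest probe. CPE array 4 and CONTROL array 4 were each the lowest of their group, and the groups did not overlap. The pair of ATP5C1 probes printed above gave 0.67 (SE 0.12) and 0.41 (SE 0.09) as deposited and 0.56 and 0.47 undone, so all 3 probes put CPE higher.

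ATP5G1 and ATP5G2, now ATP5MC1 and ATP5MC2, encode the same mature ring subunit from separate genes. ATP5G1 read 3.42, 3.26, 3.47 and 3.37 in CPE and 2.89, 2.59, 2.83 and 3.14 in CONTROL, a change of 0.52 (SE 0.12, limma adjusted p = 0.00704). ATP5G2 read 4.94, 5.25, 5.26 and 5.11 against 4.60, 4.62, 4.71 and 4.73, a change of 0.48 (SE 0.09, limma adjusted p = 0.00338). In neither gene did a CONTROL array reach the CPE arrays.
ATP5J2 (ATP5MF) read 1.37, 1.15, 1.42 and 1.35 against 0.89, 0.92, 0.90 and 1.06, a change of 0.38 (SE 0.09, limma adjusted p = 0.00725). ATP5L (ATP5MG) read 5.51, 5.69, 5.66 and 5.43 against 5.21, 5.30, 5.32 and 5.07, a change of 0.35 (SE 0.09, limma adjusted p = 0.0150). Both are small proteins of the membrane base, and in both the groups stayed apart.
ATP5J and ATP5A1 were called only with detrending undone. ATP5J (ATP5PF), a coupling factor of the stalk, read 2.65 on CPE array 3 and 3.43 to 3.53 on the other CPE arrays, and its change went from 0.09 (SE 0.19) to 0.31 (SE 0.06, limma adjusted p = 0.00277). ATP5A1 (ATP5F1A), the catalytic head's alpha subunit, read 4.43 on CPE array 3 and 5.03 to 5.08 on the others, and went from 0.09 (SE 0.15) to 0.23 (SE 0.06, limma adjusted p = 0.00609). Its 2 other probes changed by 0.11 and 0.02 as deposited and by 0.14 and 0.03 undone, and neither was called either way. ATP5B (ATP5F1B), the catalytic beta subunit, was the one tested member of complex V below 0, at -0.04 (SE 0.08), and at -0.10 (SE 0.05, limma adjusted p = 0.10) undone. A second ATP5B probe lay above 0, at 0.08 as deposited and 0.18 undone, and was not called. ATP5SL and ATP5E were not well above background on any CONTROL array and on 2 CPE arrays each, with no usable lower bound. ATP5D, ATP5F1, ATP5G3, ATP5H, ATP5I and ATP5S had no probe in the bright area; ATP5S and ATP5SL are not subunits of the enzyme itself.

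**Figure D3:**
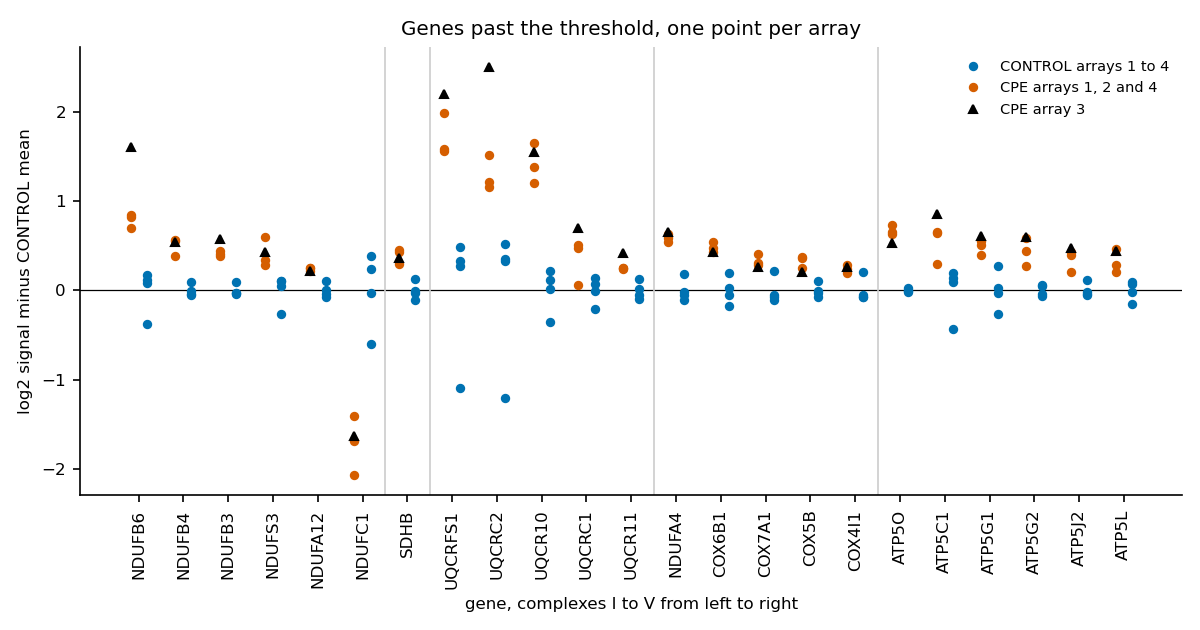
For each of the 23 members called as deposited, the log2 signal of every array minus the mean of the 4 CONTROL arrays of that member, with CPE array 3 as a triangle; vertical lines divide complexes I to V. CPE points lie above CONTROL points except in NDUFC1, where they lie below, and in UQCRC1 and COX4I1, where they overlap; CONTROL array 4 forms the low points of UQCRFS1 and UQCRC2.

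Genes read by several probes allowed a comparison of probes within the arrays. It cannot check the slide, which all probes of a group share, and no share over all genes with several probes is given. Of the tested members named here, 11 had more than 1 tested probe, which made 22 pairs of probes; 21 pairs had the same sign and 19 differed by less than 0.5 log2 (20 and 20 with detrending undone). These pairs are not all separate measurements: 6 come from NDUFA4, and 5 pairs, of NDUFA4, NDUFA12 and ATP5C1, share a run of more than 10 bases, up to 53 of 60 in an NDUFA4 pair and 29 in the NDUFA12 pair. Over all tested probes of the 44 named members, 31 of 60 were called higher and 2 lower, where 23.4% and 25.0% of all 7197 tested probes were. The lower ones were the NDUFC1 probe and the second UQCRB probe.

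**Figure D4:**
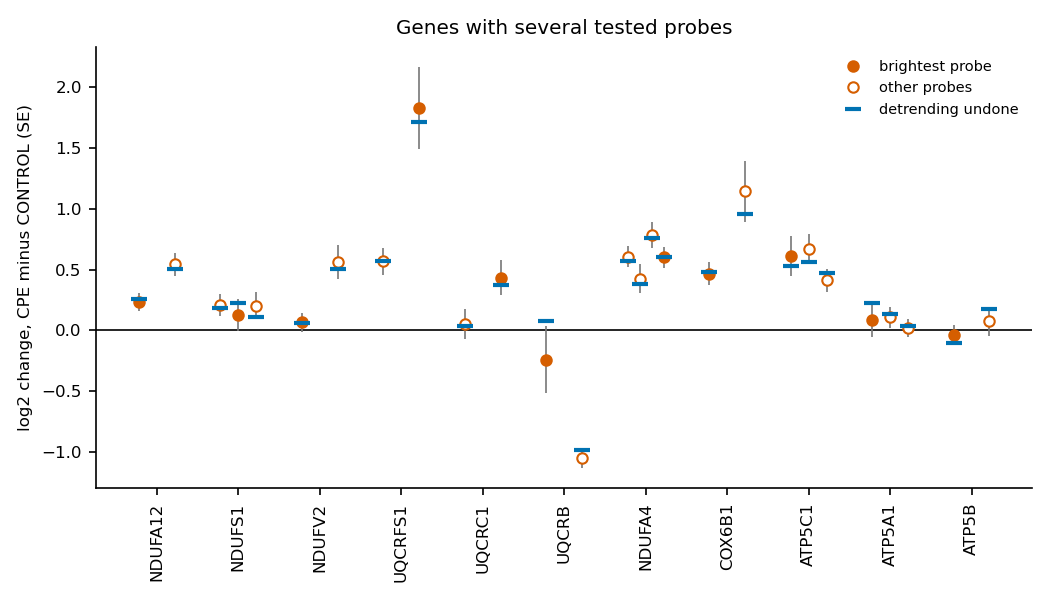
Log2 change (CPE minus CONTROL, bars are SE) of each tested probe of 11 members with several; filled circles are the brightest probe, open circles the others and dashes the change with detrending of CPE array 3 undone. Probes of NDUFA4, ATP5C1 and NDUFS1 lie close together, whereas those of UQCRFS1 (1.83 and 0.57) and UQCRB (-0.24 and -1.05) lie apart.

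How many members were called higher depended on the processing, as did the share of all genes called. Without scaling between arrays, 4 members (8.89%) were called higher as deposited, where 3.88% of all genes were. With detrending undone as well, 26 (57.8%) were, where 28.8% of all genes were. With normexp background correction on raw signal, 14 members (31.1%) were called higher against 14.2% of all genes. Over the whole array, dim areas included, 1 of 51 members (1.96%) was called higher against 2.07% of all genes. There 3 members (5.88%) were called lower against 36.7%, and the median change of members was -0.78 beside -1.03 for all genes. The rises called above are thus relative to the scaling level of the bright area. Over the whole array NDUFB6 went from 0.99 to -0.13, NDUFB4 from 0.51 to -0.61 and NDUFB3 from 0.45 to -0.67, the same shift in each. For a gene read by the same probe, only the level subtracted from each array differs there. Errors were wider there, with the SE of NDUFB4 going from 0.08 to 0.51. The median of members still lay above that of all genes there, by 0.25. The median of members exceeded the median of all genes under every processing tried, by 0.18 to 0.39 log2. Scaling by 1 level per array and the p threshold leave this difference all but unchanged by construction. It was 0.26 in the main fit, without scaling and at an adjusted p under 0.01, so these are not separate support.

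**Figure D5:**
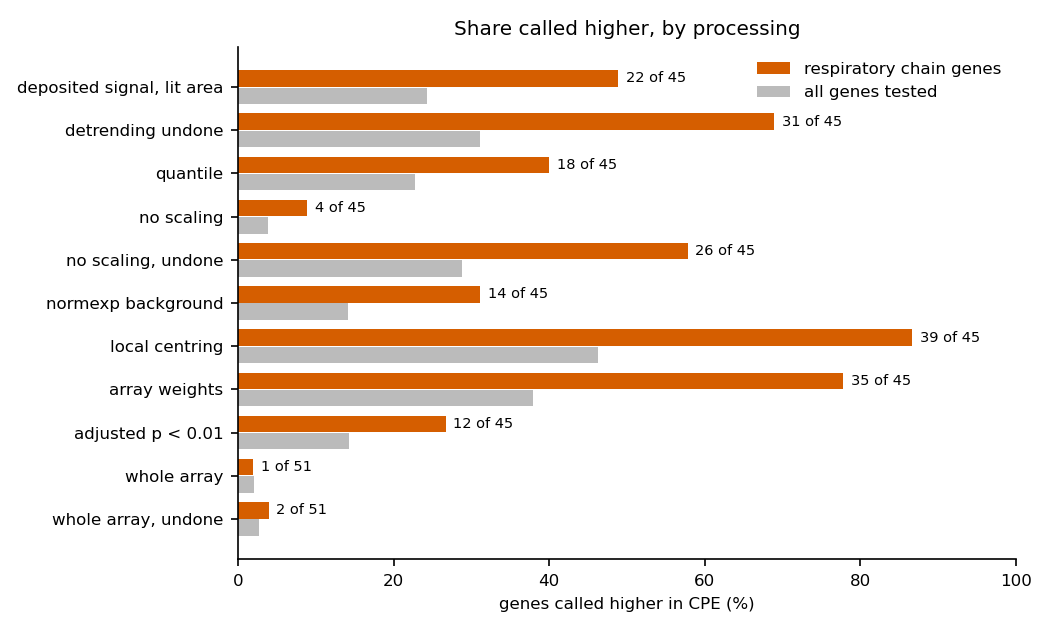
Percent of tested members and of all tested genes called higher in CPE under 11 ways of processing, with the number of members beside each bar. The members' bar is longer than that of all genes in each except the whole array as deposited (1 of 51 members, 2.07% of genes).

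The genes around the chain were listed beside the members, to be read against 24.2% of all genes called higher and 22.7% lower. Of 12 tested assembly factors, 6 were called higher and none lower, with UQCC3, a complex III assembly factor, at 0.97 (SE 0.17) and COA3, which acts in complex IV assembly, at 0.76 (SE 0.15); their median was 0.41. Of 7 tested partners of the chain, 3 were called higher and 1 lower. These were ETFDH (0.72, SE 0.17), ETFA (0.43) and ETFB (0.42), which feed electrons from fatty acid oxidation to ubiquinone, and AIFM1 (-0.31, SE 0.09); CYC1, the cytochrome c1 of complex III, was at -0.06.
Of 8 tricarboxylic acid cycle and pyruvate dehydrogenase genes, MDH2 (0.84, SE 0.16) and SUCLG2 (0.37, SE 0.09) were called higher and none lower. As deposited, the share called higher was near that of all genes. Of 6 carriers, SLC25A3, the phosphate carrier, was higher at 0.24 and VDAC3 at 0.33, and VDAC1, the main outer membrane channel, was lower at -0.63 (SE 0.08). Of 4 genes of mitochondrial transcription and its regulators, none was called higher, and ESRRA (-0.85, SE 0.21) and TFB1M (-0.31, SE 0.08) were called lower.
Of 8 mitochondrially encoded subunits, ND5 was called higher (0.51, SE 0.11) and ND6 lower (-0.29, SE 0.08), and their median was 0.05. With detrending undone, 31.1% of all genes were called higher and 29.3% lower. The counts higher and lower were then 7 and 0 for assembly factors, 3 and 1 for partners and 4 and 0 for the cycle. They were 3 and 1 for carriers, 1 and 2 for regulators and 1 and 1 for mitochondrial genes.

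Markers of blood cell types moved between the groups as well, to be read against 24.2% of all genes called higher and 22.7% lower. Of 8 tested T cell markers, 5 were called higher and none lower (CD5 1.36, CD3D 1.05, CD3G 1.00, CD4 0.95, CD3E 0.58), with a median of 0.77. Of 3 neutrophil markers, CXCR2 (-0.99) and CSF3R (-0.92) were called lower and S100A12 (0.25) higher. CSF1R of 3 monocyte markers was called lower (-0.74), PPBP, the only platelet marker tested, was higher (1.47), GNLY (1.26) and NKG7 (-0.78) of 3 NK cell markers moved in opposite directions, and none of 4 B cell markers nor HBB of red cells was called. With detrending undone PAX5 (0.21) and HBB (0.37) were called higher and LYZ (-0.34) lower as well, beside 31.1% and 29.3% of all genes. The part of these in the change of the respiratory chain genes was not tested. The local brightness around member spots differed between groups by a median of 0.01 log2, and by -0.08 over all genes. Across the 45 members, brightness difference and log2 change correlated at r = 0.30 (0.23 across all genes); spots share arrays and neighbourhoods, so this is a description.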

How the data were processed

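Total RNA of CPE and CONTROL blood was read on 8 single-colour arrays. Per the submitters' processing notes, the authors used Agilent Feature Extraction 10.10.1.1. The intensity of each spot, as deposited, was background-subtracted, on CPE array 3 also multiplicatively detrended, and left without scaling across arrays. A second deposited file gives the authors' log2 group means, each probe centred; it supplied symbols and probe sequences.

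Log2 processed signal minus the 75th percentile of the bright area of each array was used. That area comprises spots whose local value lay no more than 1.5 log2 units under the 90th percentile of such values, on all 8 arrays. Outlier spots were left out, duplicate spots averaged, and a gene represented by its brightest probe well above background on all 8 arrays. CPE and CONTROL were compared by limma 3.58.1 (R 4.3.3, two-sided). The script was tested on simulated data: of 200 among 4824 genes changed by 1 log2, 84% were recovered, with 8 false calls. The simulated noise was independent between genes, without dim areas or a slide effect, so it does not measure false calls in these data. Deviations from the group mean correlated at -0.11, -0.19, 0.30 and 0.41 between arrays sharing numbers 1 to 4. The highest correlations with another number were 0.30, 0.20, 0.28 and -0.23, a mixed result, and the main fit used no pairing. Normexp used median signals.

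Every tested member is named except 1 that is not reported here, though totals over members count it; array values are given for members past the threshold, and at most 2 genes each way for other lists, beyond which markers and partners were named after their values were seen. Members, lists and the bright area were chosen with earlier results of these data known. Current names came from RefSeq annotation (79 of 83 by transcript accession, 4 by symbol); positions are not given because the builds differ. The number of arrays limits precision.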

Additional observations from a re-analysis of the deposited data

Results flagged for a closer look

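Within a group of 4 arrays, 1 array stood apart from the other 3 (its gap to them over the range exceeded Dixon's 95% critical value) in 21 of 88 groups, 23.9%, where chance gives about 1 in 20. CONTROL array 4 was the one apart in 12, CPE array 3 in 8 and CPE array 2 in 1. With detrending undone the number was 20, of which CPE array 3 made up 1 and CONTROL array 4 made up 11.

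CPE array 3 was low in NDUFA8 (0.97), UQCRB (1.33), COX7A2L (2.18), ATP5J (2.65) and ATP5A1 (4.43), all at spots with a detrending factor under 0.4. It was high in NDUFB6 (3.41), NDUFB11 (3.49) and UQCR11 (2.97). CPE array 2 was low in NDUFB4 (2.70).

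CONTROL array 4 was low in NDUFB6 (1.43), NDUFB7 (1.70), NDUFV3 (0.94), NDUFS3 (2.41), UQCRFS1 (0.011), UQCRC2 (-0.80) and ATP5C1 (2.72). It was high in NDUFB3 (1.84), NDUFA8 (1.83), NDUFV2 (4.22), COX7A1 (0.52) and COX4I1 (5.89). Without this array, NDUFB6 changed by 0.87, UQCRFS1 by 1.47 and UQCRC2 by 1.19.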

How the results depend on the processing

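Over 24 planned and 8 added ways of processing, the median change of members lay above that of all genes. Ways that differ only in the level of each array or in the p threshold could hardly alter this. The number of members called higher, 22, became 4 without scaling, where 3.88% of all genes were called higher, and 14 with normexp (14.2%). The shares in brackets are those of all genes. It was 39 with local centring (46.3%) and 35 with array weights (37.9%). At an adjusted p under 0.01 it was 12 (14.3%), and over the whole array 1 (2.07%). Leaving out 1 array gave 17 to 28 (18.9% to 28.2%). Leaving out both CPE array 3 and CONTROL array 4 gave 32 (33.0%). With detrending undone the number of members was 39 under local centring (46.6%), 2 over the whole array (2.73%) and 35 without CONTROL array 4 (35.0%). The number called lower, 1, became 2 without a filter, with local centring (detrending undone or not), with means over probes and with array weights, 3 over the whole array, and, undone, 3 with quantile normalisation and 7 over the whole array; it was 1 whichever array was left out. Of all genes, 2264 were called, against 710 without scaling, 1263 with normexp, 3434 without a filter, 3478 with local centring (3509 undone), 3494 with array weights, 1427 at p under 0.01, and 1823 to 3002 with arrays left out. The members' median of 0.29 became 0.19 with quantile normalisation, 0.11 without scaling, 0.45 with local centring and -0.78 over the whole array; undone, it was 0.33, and then 0.36, 0.44 and -0.46 in the last 3; it was 0.26 to 0.32 with arrays left out.

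Over the whole array, where the median of members (-0.78) stayed above that of all genes (-1.03), the sign turned for 35 members. Of these, 15 had not been called (-1.09 to -0.51 over the whole array), and the called ones were NDUFB6 (-0.13), NDUFB4 (-0.61, and -0.29 undone), NDUFB3 (-0.67, -0.40), NDUFS3 (-0.71, -0.45), NDUFA12 (-0.89, -0.56), SDHB (-0.74, -0.41), UQCRFS1 (-0.69, -0.23), UQCRC1 (-0.69, -0.44), UQCR11 (-0.84, -0.53), NDUFA4 (-0.52, -0.21), COX6B1 (-0.66, -0.33), COX7A1 (-0.81, -0.47), COX5B (-0.83, -0.46), COX4I1 (-0.88, -0.56), ATP5O (-0.49, -0.15), ATP5C1 (-0.51, -0.28), ATP5G1 (-0.61, -0.30), ATP5G2 (-0.65, -0.36), ATP5J2 (-0.75, -0.45) and ATP5L (-0.78, -0.53), and, undone, the sign also turned for NDUFA5 (-0.77) with a call. UQCRB turned to 0.47 and COX8B to 0.25 under local centring (0.46 and 0.26 undone), and UQCRB to 0.14 without CPE array 3 and CONTROL array 4 and to 0.14, undone, without CONTROL array 4. With arrays left out UQCRB ranged from -0.35 to 0.14. The median of all genes, 0.03, moved to -0.15 without scaling and to 0.14 with local centring. With a wider neighbourhood UQCRC2 was 0.25 and UQCRFS1 0.44, each read by another probe and neither called. Over the whole array, too, UQCRFS1 was read by that brighter probe and not by the called one. In the authors' deposited values, scaled over the whole array, the called UQCRFS1 probe stood at 0.70. For members read by the same probe, the whole-array change differed from the main one only through the level subtracted from each array. The cause of the remaining differences was not tested. With the replicate number as a block, although pairing by number is not established, 21 members were called higher and 1 lower. Only spots in the bright area, 29.7% of the array, carry these results, and 38 of 83 members lay outside it or too near background.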
